A study of Mus musculus with 4 samples.

Results

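The matrix metalloproteinases (Mmp genes), their tissue inhibitors (Timp genes) and the ADAMTS proteases (Adamts genes) were followed through a map of cytosine modification in the mouse heart after infarction. The members are every protein-coding gene on the 19 autosomes of the RefSeq table (GRCm38.p6, the mm10 assembly) whose symbol is Mmp, Timp or Adamts followed by a number, with or without a letter. This rule gave 45 of 20661 genes, of which 23 are Mmp, 3 are Timp and 19 are Adamts genes. Timp1 lies on chromosome X and was not analysed here. No measured value entered the rule.

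The study compared infarcted with non-infarcted left ventricle from C57BL/6 mice aged 8 weeks, either wild-type or Neil3-/-, which lack a DNA glycosylase that removes oxidized bases. Each of the 4 groups, infarcted and non-infarcted tissue of either genotype, is 1 sample, and all were taken 3 days after induced myocardial infarction, the non-infarcted tissue included. The labels do not say how many animals a sample holds, whether both tissues came from the same hearts, or how the Neil3-/- line was made. The genomic DNA of each sample gave 3 libraries of CCGG sites. HpaII cuts CCGG when it is unmodified. MspI cuts it whether or not the inner cytosine is modified, and MspI after glucosylation no longer cuts where that cytosine is 5-hydroxymethylated.

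Matrix metalloproteinases are zinc enzymes that cut collagens, gelatins and other proteins outside the cell, and most are made as inactive precursors. TIMPs bind the active enzymes and block them. ADAMTS proteases carry thrombospondin repeats, and among their substrates are the large proteoglycans, procollagens and von Willebrand factor. After an infarct, breakdown and rebuilding of the matrix by these enzymes shape the scar. Unmodified cytosines at a gene's start are typical of CpG-rich promoters, while the bodies of most genes are largely methylated.

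Whether a start can be measured at all by these enzymes depends on its sequence. RefSeq promoter sequences (GRCm38.p6) were matched by symbol for 31 of the 45 members. In the 250 bases before the start, 18 of the 31 held at least 1 CCGG and 13 held none, against 56.6% with at least 1 among 16456 autosomal genes with such a sequence. CCGG reads the same on both strands. The 6 windows below are written 5′ to 3′ on the gene's strand with each CCGG in capitals. The first 5 each hold a CCGG that was measured in all 4 samples, and Mmp13 stands for the CCGG-free collagenase and stromelysin starts.
Mmp14: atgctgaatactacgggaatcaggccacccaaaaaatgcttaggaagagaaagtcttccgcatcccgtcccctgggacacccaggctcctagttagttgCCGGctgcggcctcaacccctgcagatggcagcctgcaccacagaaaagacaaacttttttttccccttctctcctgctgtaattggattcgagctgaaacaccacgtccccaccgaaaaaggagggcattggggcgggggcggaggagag
Mmp15: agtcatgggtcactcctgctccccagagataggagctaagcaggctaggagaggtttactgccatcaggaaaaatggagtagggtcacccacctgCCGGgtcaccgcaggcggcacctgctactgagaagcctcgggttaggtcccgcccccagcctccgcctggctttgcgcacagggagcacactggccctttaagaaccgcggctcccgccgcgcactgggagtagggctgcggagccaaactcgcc
Timp2: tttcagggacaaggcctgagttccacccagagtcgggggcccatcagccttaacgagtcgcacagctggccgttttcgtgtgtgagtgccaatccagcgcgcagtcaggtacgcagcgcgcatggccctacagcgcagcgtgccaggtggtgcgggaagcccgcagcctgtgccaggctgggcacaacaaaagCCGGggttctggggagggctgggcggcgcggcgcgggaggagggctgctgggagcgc
Timp3: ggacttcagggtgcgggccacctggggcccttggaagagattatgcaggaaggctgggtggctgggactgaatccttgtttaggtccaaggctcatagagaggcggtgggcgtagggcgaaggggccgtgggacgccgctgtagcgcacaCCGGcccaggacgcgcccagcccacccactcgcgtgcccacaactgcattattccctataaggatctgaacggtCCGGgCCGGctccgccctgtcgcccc
Adamts17: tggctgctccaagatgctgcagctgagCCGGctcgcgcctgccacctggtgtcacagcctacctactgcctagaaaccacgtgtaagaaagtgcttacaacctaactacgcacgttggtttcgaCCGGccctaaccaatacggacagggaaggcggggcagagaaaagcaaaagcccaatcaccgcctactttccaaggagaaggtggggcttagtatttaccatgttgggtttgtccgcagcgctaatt
Mmp13: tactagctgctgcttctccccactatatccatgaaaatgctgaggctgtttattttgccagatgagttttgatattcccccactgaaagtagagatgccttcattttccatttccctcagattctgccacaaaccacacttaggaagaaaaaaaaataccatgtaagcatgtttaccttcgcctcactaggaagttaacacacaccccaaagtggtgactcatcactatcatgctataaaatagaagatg
These windows lie at chr14:54431348-54431597 (plus strand) for Mmp14, chr8:95352046-95352295 (plus) for Mmp15, chr11:118355412-118355661 (minus) for Timp2, chr10:86300162-86300411 (plus) for Timp3, chr7:66839485-66839734 (plus) for Adamts17 and chr9:7272264-7272513 (plus) for Mmp13. All 10 Mmp genes of the cluster on chromosome 9 between 7 and 8 Mb (Mmp13, Mmp12, Mmp1b, Mmp3, Mmp1a, Mmp10, Mmp8, Mmp27, Mmp20 and Mmp7) lacked CCGG in this window. The remaining CCGG-free windows were those of Mmp21, Timp4 and Adamts13.

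The measured sites in the printed windows carried more HpaII than MspI signal in every sample. The measure used throughout is the HpaII signal divided by the MspI signal, and it is larger where more of the site is unmodified. Within a sample the 3 deposited libraries have nearly equal totals, so the ratio is relative and passes 1 where a site takes a larger share of the HpaII library than of the MspI library. Values in rows of 4 below give wild-type before Neil3-/- and, within a genotype, non-infarcted before infarcted tissue. The ratio at the Mmp14 site 151 bases before the start was 2.71, 2.87, 3.06 and 2.82. At the Timp3 site 100 bases before the start it was 6.33, 7.70, 11.3 and 8.02, and at the Timp2 site 57 bases before the start it was 6.05, 5.80, 3.11 and 5.16. Mmp15, at its site 155 bases before the start, was nearest to even with 1.18, 1.47, 1.396 and 1.17. Single sites varied widely. The Adamts17 site 223 bases before the start gave 29.5, 9.97, 10.2 and 16.6 over MspI signals of only 3.89 to 10.2, and its other site, 126 bases before the start, gave 1.54, 2.08, 1.72 and 1.53.

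Around the members, 1762 CCGG sites were listed in at least 1 sample, 1605 in all 4, and 1530 passed a minimum mean signal of 10. A gene end is the window of 1 kb on either side of whichever end has more sites, with at least 5 sites required. Where both ends had equally many, the lower-coordinate end was taken. Among members with end sites this was so for Mmp3, Mmp9, Mmp28 and Adamts20, all under the minimum. A gene body starts 1 kb inside each end and needs at least 10 sites. The end was measured in 10 members and the body in 31. In all, 32 members had at least 1 of these and 13 had neither. The 13 are Mmp1a, Mmp1b, Mmp3, Mmp7, Mmp8, Mmp10, Mmp12, Mmp13, Mmp19, Mmp21, Mmp27, Timp4 and Adamts1. For all autosomal genes, 4103 ends and 9738 bodies were measured.

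Facts of the libraries bear on every ratio. The signal of a library summed to 33764133 to 43428586 over the autosomes, and the number of tags is unknown. Across sites the ratio was lower where the MspI signal was higher: from the lowest to the highest of 5 equal bins of sites by MspI signal, the median in wild-type non-infarcted tissue went from 2.48 to 0.457 over all sites and from 3.25 to 0.491 over member sites. Part of this fall is built in, since the MspI signal is the divisor of the ratio. The log2 HpaII signal correlated with the log2 MspI signal of the same sample at only 0.13 to 0.16. One glucosylated library, that of non-infarcted wild-type tissue, differed from the rest, since its log2 signal correlated with the MspI library of the same sample at 0.43 across sites, against 0.62 to 0.65 in the other samples. No RNA was measured, so the tissue label was not checked against marker expression.

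In the bodies, the median ratio of the Mmp genes was above that of the Adamts genes in every sample. The median over the 11 measured Mmp bodies was 1.04, 1.04, 1.105 and 1.08, and over the 18 Adamts bodies 0.856, 0.892, 0.870 and 0.882. The medians over all 9738 genes were 0.876, 0.908, 0.913 and 0.924. Both families overlapped widely, from 0.734 to 1.83 for Mmp and from 0.640 to 2.48 for Adamts genes. The ratio was at least 1 in all 4 samples in 10 of 31 members, and in 30.9% of all measured bodies. Member bodies varied little between samples, with a median of 1.09 for the highest over the lowest sample, against 1.12 for all genes.

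**Figure D1:**
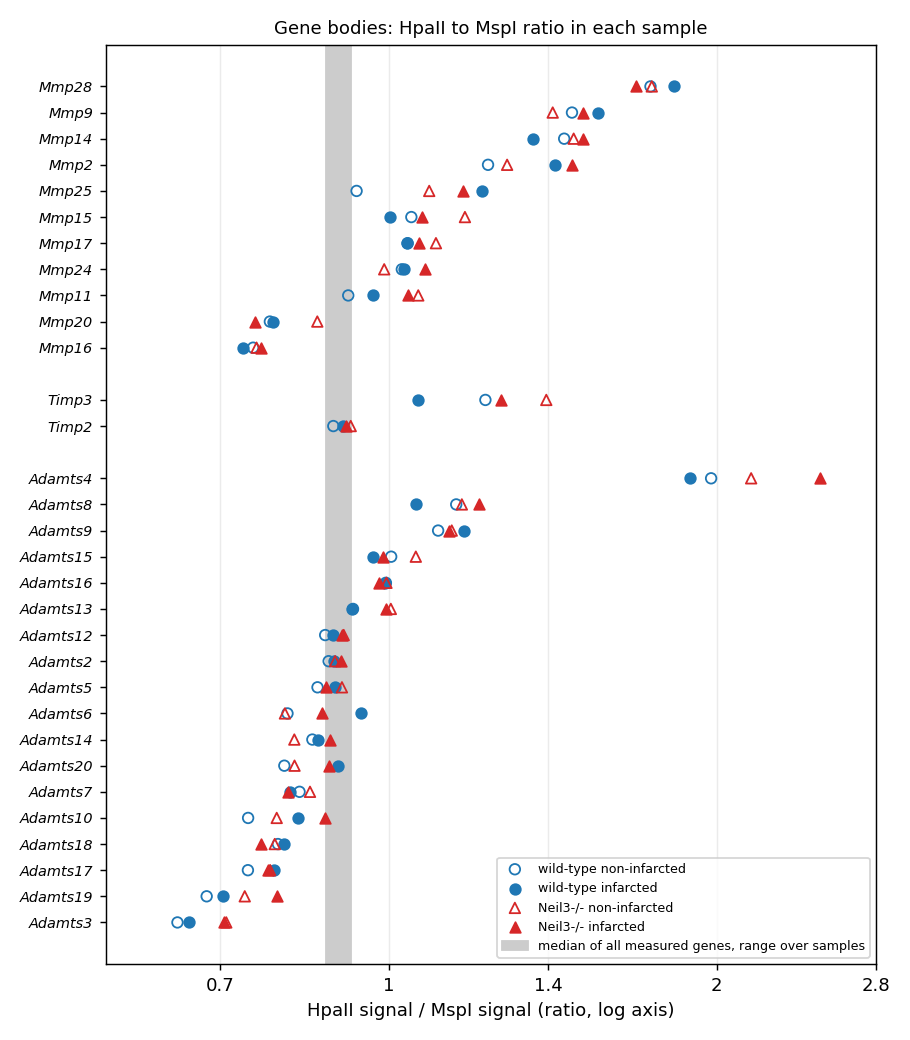
Ratio of HpaII to MspI signal (log axis) over the gene body of the 31 measured members in each of the 4 samples, ordered within family by their mean. Points are single samples, with no error bar because each group is 1 sample, and the grey band is the median of all measured genes (0.876 to 0.924). Adamts4 and Mmp28 stand highest and Adamts3 lowest.

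The gelatinases, which degrade denatured collagen and basement membrane, were among the highest. The Mmp9 body (chromosome 2, 164940326 to 164955850, 15 sites) gave 1.47, 1.56, 1.41 and 1.51. The Mmp2 body (chromosome 8, 92827290 to 92853421, 20 sites) gave 1.23, 1.42, 1.28 and 1.47, so that both infarcted samples lay above both non-infarcted ones. Relative to the median gene, Mmp2 was 1.11-fold higher in infarcted tissue in wild-type and 1.13-fold in Neil3-/-. In an additive fit of infarct and genotype over the 4 samples with limma, which has 1 residual degree of freedom, the Mmp2 infarct difference was 0.20 ± 0.059 (SE) on the log2 scale, with an unadjusted p of 0.0130 and an adjusted p of 0.274. The fit took the log2 ratio itself, not relative to the median gene, so a shift shared by all genes is part of that difference. The same holds for every limma value below. The ends of both genes held too few sites for the minimum (3 for Mmp2 and 2 for Mmp9), with ratios of 4.76 to 8.25 for Mmp2 and 6.91 to 9.58 for Mmp9.

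Among membrane-anchored enzymes, Mmp14, which activates the Mmp2 precursor at the cell surface, had a body ratio of 1.45, 1.36, 1.48 and 1.51 (chromosome 14, 54431598 to 54442456, 14 sites). The transmembrane relatives Mmp15 (1.003 to 1.17) and Mmp24 (0.990 to 1.08) lay near 1, and Mmp16 was the lowest of the Mmp bodies with 0.751, 0.734, 0.756 and 0.764. The glycosylphosphatidylinositol-anchored Mmp17 gave 1.04 to 1.105. Its relative Mmp25, an enzyme of neutrophils, gave 0.934, 1.22, 1.09 and 1.17, with wild-type non-infarcted tissue low and the other 3 close together.

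Mmp28, also named epilysin, had the highest Mmp body ratio with 1.74, 1.83, 1.74 and 1.68 (chromosome 11, 83440768 to 83463040, 21 sites). Mmp11, a stromelysin with little activity on collagen, gave 0.918, 0.968, 1.06 and 1.04, with both Neil3-/- samples above both wild-type ones. The median over all genes had the same order. Relative to the median gene, Mmp11 was 1.11-fold higher in Neil3-/- in non-infarcted and 1.06-fold in infarcted tissue. Its genotype difference in the limma fit was 0.16 ± 0.063 (SE) on the log2 scale, with an adjusted p of 0.505. That difference, unlike the folds, is not relative to the median gene. Mmp20, the enamel protease, was the only gene of the chromosome 9 cluster with a measured body and gave 0.778, 0.783, 0.860 and 0.754, the second lowest of the Mmp bodies by its mean.

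Of the TIMPs, Timp3, which is held in the matrix and also inhibits several ADAM and ADAMTS enzymes, differed most between samples. Its body (chromosome 10, 86300412 to 86349505, 26 sites) gave 1.23, 1.06, 1.39 and 1.27. In each genotype the infarcted sample was lower, by a fold of 0.837 in wild-type and 0.897 in Neil3-/- relative to the median gene. Within each tissue the Neil3-/- sample was higher, by 1.09-fold in non-infarcted and 1.17-fold in infarcted tissue relative to the median gene. In the limma fit the infarct difference was -0.17 ± 0.061 (SE) with an adjusted p of 0.313, and the genotype difference 0.22 ± 0.061 with an adjusted p of 0.422. These limma differences, unlike the folds, are not relative to the median gene. The Timp3 span lies inside that of Syn3, so its sites belong to both genes. Timp2, which takes part in activating the Mmp2 precursor, had an even body at 0.890, 0.908, 0.923 and 0.913 over 50 sites. Timp4, an inhibitor abundant in heart, had 5 body sites, under the minimum, with 0.600, 0.549, 0.532 and 0.526, and lies inside Syn2.

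Among the Adamts genes, the proteoglycan-cleaving members ran from the highest member body to below the median gene. Adamts4, an aggrecanase, had the highest body ratio of all 31 members with 1.98, 1.89, 2.15 and 2.48. Adamts8 (1.06 to 1.21) and Adamts9 (1.11 to 1.17) were above 1 in all 4 samples. Adamts15 (0.967 to 1.06), Adamts5 (0.860 to 0.906) and Adamts20 (0.802 to 0.899) followed. Adamts1, a versican-cleaving enzyme, had 9 body sites, under the minimum, with 1.31, 1.58, 1.57 and 1.37, and 4 sites at its start with 2.24 to 2.64.

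Of the procollagen N-proteinases, which trim the amino end of fibrillar procollagens, Adamts3 was the lowest member with 0.640, 0.656, 0.709 and 0.707 (chromosome 5, 89673841 to 89883668, 51 sites). Both Neil3-/- samples were above both wild-type ones, an order that the median over all genes also had (0.876, 0.908, 0.913 and 0.924). Relative to the median gene, Adamts3 was 1.06-fold higher in Neil3-/- in non-infarcted and in infarcted tissue. Adamts2 (0.881 to 0.904) and Adamts14 (0.819 to 0.883) were near the median gene. Adamts7 (0.808 to 0.847) and Adamts12 (0.874 to 0.909), which cut cartilage oligomeric matrix protein, were below 1 in every sample, and Adamts13 (0.925 to 1.004), which cuts von Willebrand factor, was near 1. The remaining bodies were Adamts16 (0.980 to 0.995), Adamts6 (0.803 to 0.943), Adamts10 (0.743 to 0.873), Adamts18 (0.763 to 0.801), Adamts17 (0.743 to 0.784) and Adamts19, the second lowest by its mean (0.681 to 0.789).

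Short members had higher body ratios than long ones. Across the 31 bodies, the Spearman rank correlation of the mean ratio with gene length was -0.717, against -0.148 across all 9738 genes. Within families it was -0.527 over 11 Mmp and -0.527 over 18 Adamts genes. The correlation with used body sites per kb of gene was 0.561 across the members, 0.236 within Mmp and 0.311 within Adamts genes. Across all genes it was 0.320, stronger than that with length. Length and site density were not tested apart. Adamts4 spans 12.1 kb and Mmp14 10.9 kb, whereas Adamts3 spans 209.8 kb and Mmp16 264.4 kb. Genes are not independent replicates and share the 4 samples, so no test was made.

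At gene ends every measured member had more HpaII than MspI signal, as most genes had. The ratio was at least 1 in all 4 samples in 10 of 10 members and in 90.0% of 4103 genes. The member medians were 2.15, 2.31, 2.17 and 2.34, against 1.99, 2.02, 1.98 and 1.97 for all genes. The highest was Adamts10, which binds fibrillin microfibrils, with 6.73, 5.34, 5.27 and 5.85 over 5 sites at its lower-coordinate end. Adamts9 followed with 3.90, 4.31, 3.45 and 3.24 over 5 sites at its start.

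Lower down the order, Adamts17 (2.52 to 2.87), Timp2 (2.08 to 2.84), Adamts16 (2.19 to 2.53), Adamts13 (1.86 to 2.48), Mmp23 (1.85 to 2.15), Adamts14 (1.84 to 2.08), Adamts8 (1.71 to 2.001) and Mmp15 (1.59 to 1.91) overlapped one another. The windows of Adamts13 and Mmp23 also hold an end of a neighbouring gene (Cacfd1 and Mib2), and the Adamts13 window is at the far end of the gene, not at its start. Timp2 gave 2.37, 2.84, 2.08 and 2.23, with both wild-type samples above the Neil3-/- sample of the same tissue. Its genotype difference in the limma fit was -0.27 ± 0.11 (SE), with an adjusted p of 0.697.

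**Figure D2:**
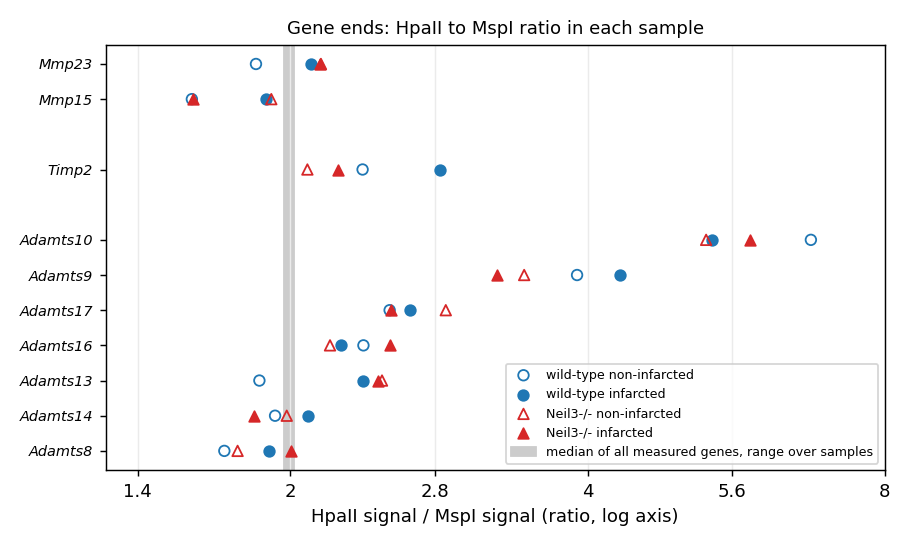
Ratio of HpaII to MspI signal (log axis) within 1 kb of the site-richer end of the 10 members with at least 5 sites there, in each of the 4 samples. Points are single samples and the grey band is the median of all measured genes (1.97 to 2.02). Adamts10 and Adamts9 lie above the other members in every sample.

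To include the members that missed the minimum, all used sites at both ends were also pooled by family. Pooled Adamts ends (75 sites in 19 genes) gave 2.15, 2.20, 2.18 and 2.11, and pooled Timp ends (13 sites in 3 genes) 1.60, 1.74, 1.47 and 1.495. The Mmp genes divided by position. The 13 Mmp genes outside the chromosome 9 cluster gave 1.96, 1.98, 2.02 and 1.97 over 57 sites, and the 10 cluster genes, with 10 sites in 7 genes, gave 0.710, 0.868, 0.674 and 0.794. All genes together gave 1.70, 1.76, 1.71 and 1.74.

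In the cluster, the ends of the interstitial collagenases were low, with 1 site each. Mmp1a, at its start, gave 0.290, 0.242, 0.234 and 0.268, and Mmp1b, at its far end, 0.290, 0.363, 0.338 and 0.475. Mmp8, the neutrophil collagenase, also with 1 site, was above 1 in every sample with 1.3004, 1.69, 1.09 and 1.77, higher in both infarcted samples. Of the other cluster ends, Mmp20 (0.895 to 1.47) and Mmp27 (0.801 to 1.09), with 1 far-end site each, passed 1 in some samples. Mmp3 (0.398 to 0.665 over 2 sites) and Mmp10 (0.331 to 0.512 at 1 far-end site) did not. Outside the cluster, low ends were seen at Mmp19 (0.376 to 0.490 over 2 sites) and Mmp21 (0.441 to 0.613 over 3 sites). Mmp7, Mmp12 and Mmp13 had no used end site, and Mmp1a had no used body site.

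Bodies under the minimum of 10 sites spread more widely than the measured ones. In the cluster, Mmp12, the macrophage elastase, gave 0.285, 0.313, 0.253 and 0.370 over 3 sites and Mmp10, a stromelysin, 2.004, 1.92, 1.51 and 2.06 over 3 sites. Mmp8 gave 1.34, 1.95, 1.57 and 2.27 over 3 sites, higher in the infarcted sample of each genotype, as its end site was. Mmp13, a collagenase, gave 1.2526 to 1.74 over 2 sites, Mmp7, or matrilysin, 1.16 to 1.401 over 1 site, Mmp3 0.515 to 0.965 over 4, Mmp27 0.562 to 0.922 over 4 and Mmp1b 0.220 to 0.669 over 2. Outside it, Mmp23 was high (2.17 to 2.66 over 5 sites), and Mmp19 (0.692 to 0.816 over 6) and Mmp21 (0.194 to 0.243 over 4) were low, as their ends were.

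Of the ends under 5 sites, those of the Adamts genes were mostly high. Adamts3 gave 4.09 to 8.47 at 1 site, Adamts15 2.55 to 3.83 over 3, Adamts4 2.87 to 3.20 over 2 and Adamts2 2.46 to 3.27 over 3. Adamts7 (2.28 to 2.61), Adamts12 (2.03 to 2.401), Adamts18 (1.77 to 2.28) and Adamts6 (1.67 to 2.05) followed with 3 sites each. Adamts19 (1.16 to 1.93) and Adamts5 (1.21 to 1.31) had 2 sites each, and Adamts20 (0.612 to 0.768 at 1 far-end site) was the only Adamts end under 1. Among Mmp genes, Mmp28 (4.42 to 7.67, far end), Mmp11 (3.87 to 4.69) and Mmp16 (3.37 to 4.51) were high over 2 sites each, Mmp17 (2.56 to 2.87 over 4) and Mmp24 (2.37 to 2.79 over 3, far end) intermediate, and Mmp14 (1.56 to 1.91 over 2) and Mmp25 (1.401 to 1.496 over 4) lower. Timp3 gave 1.28 to 1.52 over 3 sites and Timp4 1.04 to 1.29 over 2. The windows of Mmp11, Mmp24, Mmp25 and Mmp28 also hold an end of another gene (Chchd10, BC029722, Bicdl2 and 1700020L24Rik).

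The infarct comparison was then made within each genotype. With 1 sample a group no test exists between 2 samples, so a gene was called by size, when its ratio was at least 25% higher, or at least 20% lower, than in the other sample, relative to the median gene. In wild-type bodies 1 of 31 members was called, Mmp25, which was 1.26-fold higher in infarcted tissue, against 3.56% of all genes. In Neil3-/- bodies 0 of 31 were called, against 1.57%, and Mmp25 was at 1.06. At wild-type ends 2 of 10 were called, against 10.2%: Adamts13 was higher (1.254-fold) and Adamts10 lower (0.781). At Neil3-/- ends 0 of 10 were called, against 5.53%, and these genes were at 0.990 and 1.11.

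The member folds centred on the median gene. Their median log2 fold in bodies was -0.03 in wild-type and -0.02 in Neil3-/-, with ranges of the fold from 0.837 to 1.26 and from 0.866 to 1.14. At ends the medians were 0.13 and -0.01. The infarct fold was on the same side of the median gene in both genotypes in 19 of 31 bodies, against 60.4% of all genes, with 6 above and 13 below in both. At ends it was so in 2 of 10, against 54.3%, both above (Timp2 and Adamts8). A fit over the 4 samples with limma and Benjamini-Hochberg adjustment called 0 of 31 bodies for the infarct, against 0% of all genes, and 0 of 10 ends, against 0.195%. At an unadjusted p under 0.05 there were 5 of 31 bodies (Timp3, Adamts6, Mmp25, Adamts10 and Mmp2) among 1305 of 9738 genes, and 0 of 10 ends among 367 of 4103.

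Mmp25 did not differ evenly over its 12 body sites. Its summed ratio was 0.934 in wild-type non-infarcted and 1.22 in wild-type infarcted tissue. Its site of strongest MspI signal, 14050 bases from the lower-coordinate end, with MspI signals of 131, 82.8, 97.9 and 100.2, had ratios of 0.166, 0.222, 0.328 and 0.269. Without that site the Mmp25 fold was 1.21, and with the median of single-site ratios it was 0.909, on the other side of 1.

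The called ends rest on few sites. All 5 Adamts10 end sites had low MspI signals, from 8.09 to 25.2, and at the site 349 bases inside the lower-coordinate end the HpaII signal was 120.6, 85.7, 122.4 and 151.7 over MspI signals of 8.84, 9.69, 12.4 and 8.09. In Adamts13, the site 36646 bases from the lower-coordinate end, just beyond the gene, had MspI signals of 25.6, 4.52, 26.1 and 4.21, low in both infarcted samples, and ratios of 0.880, 6.63, 1.39 and 5.36. Its strongest site, at 36672 bases, gave 0.871, 1.05, 1.29 and 1.06. With windows of 2 kb, the wild-type infarct folds were 0.887 for Adamts10 and 1.19 for Adamts13, neither of which is a call.

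Markers of heart cell types differed in the same comparison. The bodies of 7 measured cardiomyocyte genes had a median log2 fold of -0.30 in wild-type and -0.16 in Neil3-/-, with 0 of 7 and 1 of 7 above the median gene. The 6 leukocyte genes had medians of 0.15 and 0.12, with 5 of 6 and 4 of 6 above it, the 3 fibroblast genes 0.22 and 0.04, and the 6 endothelial genes -0.13 and -0.05. In wild-type the markers past the fold were Mpo, a neutrophil granule enzyme (1.37-fold higher), Tnnt2 (0.702), Actn2 (0.789) and Tie1 (0.751), where 3.56% of all genes were. In Neil3-/- only Mpo was past it (1.34-fold higher), where 1.57% of all genes were. Itgam, another leukocyte gene, was at 0.989 and 0.985. Markers also differed for genotype in infarcted tissue, which shares the wild-type infarcted sample with the infarct comparison. There 7 of 7 cardiomyocyte (median log2 fold 0.105) and 6 of 6 endothelial bodies (0.104) were above the median gene. Of the leukocyte bodies 2 of 6 were above it, and of the fibroblast bodies 1 of 3. Only Tie1 was past the fold (1.26-fold higher in Neil3-/-), where 1.94% of all genes were. In whole tissue a different mix of cells and a different modification within a cell cannot be told apart, and the part of cell composition in the member values was not tested.

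**Figure D3:**
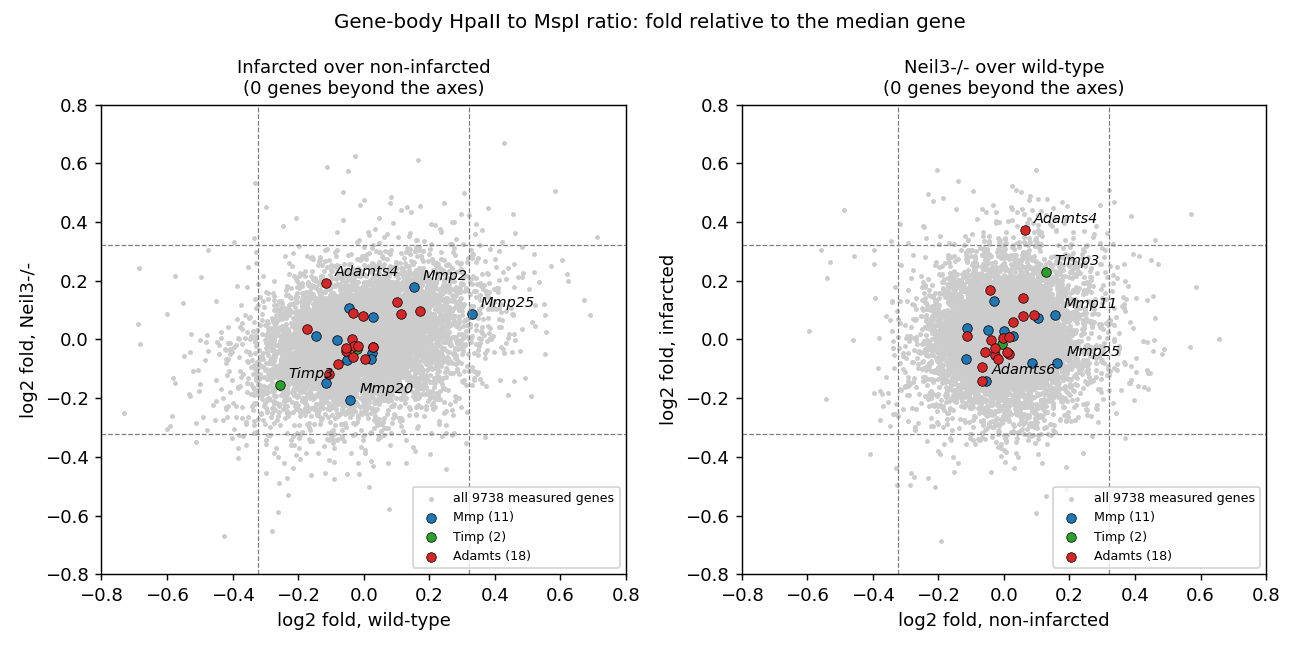
Log2 fold of the gene-body HpaII to MspI ratio relative to the median gene, for infarcted over non-infarcted tissue (left, wild-type against Neil3-/-) and for Neil3-/- over wild-type (right, non-infarcted against infarcted). Grey points are all 9738 measured genes, coloured points the 31 members, and dashed lines the limits of 25% higher and 20% lower. Mmp25 (left) and Adamts4 (right) are the only members beyond a line.

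Between genotypes, the bodies of the members differed little. In non-infarcted tissue 0 of 31 members were called, against 1.21% of all genes. In infarcted tissue 1 of 31 was called, Adamts4, which was 1.29-fold higher in Neil3-/-, against 1.94%. At ends, non-infarcted tissue had 2 of 10, against 4.95%: Adamts13 was 1.34-fold higher and Adamts10 at 0.788. Infarcted tissue had 1 of 10, against 7.48%, which was Adamts9 at 0.766. The wild-type non-infarcted sample is the shared denominator of the Adamts13 and Adamts10 folds in both the infarct and the genotype comparison, so the 4 values are not independent.

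The limma fit called 0 of 31 bodies for genotype, against 0% of all genes, and 0 of 10 ends, against 0.0244%. At an unadjusted p under 0.05 it had 3 of 31 bodies (Adamts4, Mmp11 and Timp3) among 898 of 9738, and 2 of 10 ends (Timp2 and Adamts9) among 280 of 4103. The Adamts9 genotype difference at its start was -0.30 ± 0.11 (SE) on the log2 scale, with an adjusted p of 0.587. In infarcted tissue 4 of its 5 end sites were lower in Neil3-/-, as in the site 17 bases inside the gene, where wild-type gave 5.10 and Neil3-/- 3.84, while the site 200 bases inside gave 13.5 and 14.3. With windows of 2 kb the Adamts9 fold was 0.825, and the non-infarcted genotype folds were 0.873 for Adamts10 and 1.28 for Adamts13. Without the strongest MspI site of each window these 2 folds were 0.864 and 1.234, neither of which is a call.

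Adamts4 is the only member inside a stretch of the genome where sites of wild-type tissue went missing in Neil3-/- tissue. In the marked 9 Mb of chromosome 1 that hold the gene, neither Neil3-/- sample listed 588 of the 3677 sites that both wild-type samples had (15.99%). In chromosome 8 from 29 to 59 Mb this was so of 1397 of 10031 (13.9%), and elsewhere of 0.559%. Both intervals were marked with earlier results of these data known, that of chromosome 1 for its genotype-specific sites and that of chromosome 8 as the surroundings of Neil3. Their shares against the rest of the genome therefore describe that choice and are not a test. Adamts4 (chromosome 1, 171250129 to 171262267) had 2 such sites of the 18 listed in any sample, a different base from that of the shares above. Over all members there were 15 such sites, in 8 genes, and 4 sites listed in both Neil3-/- and neither wild-type sample.

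Within Adamts4, the MspI signal of 1 body site was less than 50% as high in both Neil3-/- samples as in both wild-type ones, which held for no other body site. It lies 1575 bases from the lower-coordinate end, and its MspI signal reached 60.6 and 65.1 in the wild-type samples against 15.6 and 21.9 in the Neil3-/- samples, while its HpaII signal was 140.5, 132.7, 106.8 and 131.0. Its ratio was therefore 2.32, 2.04, 6.83 and 5.97. The other 10 body sites together gave 1.92, 1.86, 1.94 and 2.26, and without that site the fold between genotypes was 1.20 in infarcted and 0.972 in non-infarcted tissue, against 1.29 and 1.05 with it. Leaving the site out was chosen after seeing the data. The limma difference that follows, unlike these folds, is not relative to the median gene. In the limma fit on all sites the Adamts4 genotype difference was 0.26 ± 0.080 (SE), with an adjusted p of 0.443.

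**Figure D4:**
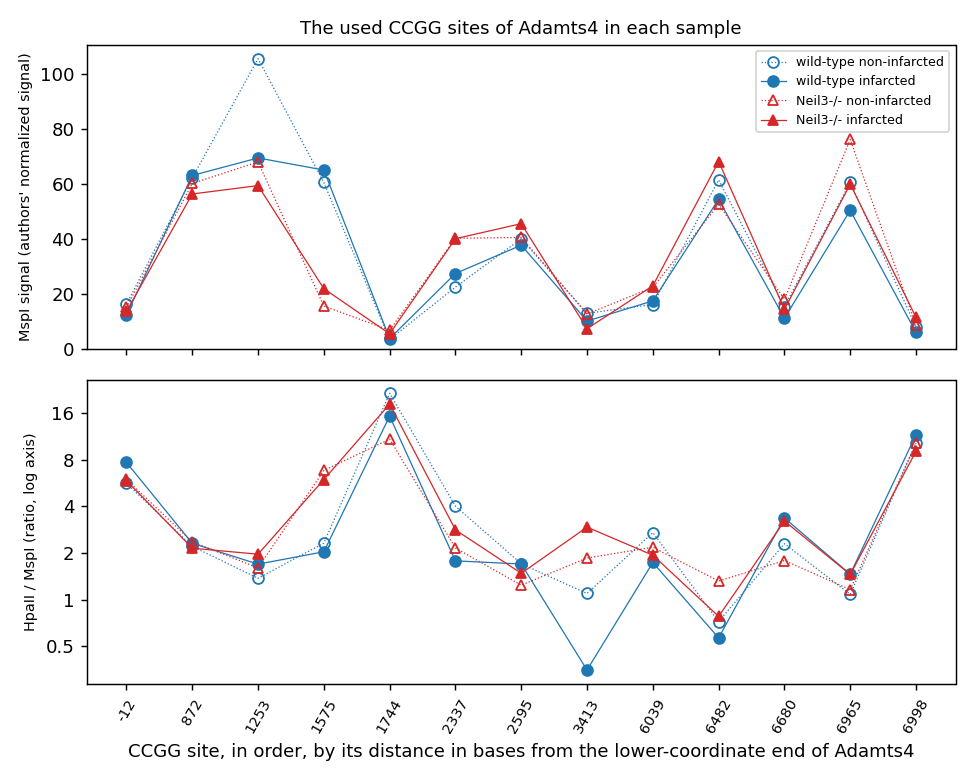
MspI signal (top, the authors' normalized signal) and HpaII to MspI ratio (bottom, log axis) at the 13 used CCGG sites of Adamts4, in order along the gene, in each of the 4 samples. At the site 1575 bases from the lower-coordinate end the wild-type samples had MspI signals of 60.6 and 65.1 and the Neil3-/- samples 15.6 and 21.9.

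The second ratio, glucosylated MspI over MspI, is smaller where more sites carry 5-hydroxymethylcytosine. In bodies it was under 1 in all 4 samples in 16 of 31 members and in 51.9% of all genes. Adamts6 (0.634, 0.811, 0.726 and 0.753) and Adamts3 (0.715, 0.840, 0.749 and 0.745) were the lowest by their mean and Adamts4 the highest (1.80, 1.65, 1.67 and 1.53). Mmp14 gave 1.58, 1.18, 1.248 and 1.32, and Mmp28 1.51, 1.24, 1.17 and 1.302, each highest in wild-type non-infarcted tissue, whose glucosylated library differed from the rest.

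For the infarct in wild-type, 3 of 31 bodies were called, against 6.85%: Adamts6 was 1.26-fold higher, Mmp14 was at 0.733 and Adamts13 at 0.783. For genotype in non-infarcted tissue 2 of 31 were called, against 5.41%, Mmp28 at 0.761 and Mmp14 at 0.778. The comparisons without that library had 0 of 31 bodies each, against 0.893% for the infarct in Neil3-/- and 1.21% for genotype in infarcted tissue. At ends, the infarct in wild-type had 1 of 10 called, against 24.2%, Adamts10 at 0.656, and the infarct in Neil3-/- had 0 of 10, against 8.36%. For genotype, ends in non-infarcted tissue had 2 of 10, against 18.2%, Adamts10 at 0.623 and Adamts9 at 0.740. Ends in infarcted tissue, a comparison that does not use that library, had 3 of 10, against 10.3%: Adamts16 was 1.28-fold higher, Timp2 was at 0.750 and Adamts14 at 0.761. The part of that library in the folds that use it was not tested.

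Other genes of the same system were counted by the same rule. Of 12 measured bodies of activators and inhibitors of these enzymes, none was called in any of the 4 comparisons, and 11 of 12 were above the median gene for the infarct in wild-type (median log2 fold 0.05) and 7 of 12 in Neil3-/- (0.03). At 5 measured ends Furin, a convertase that activates membrane-anchored enzymes, was 1.31-fold higher in infarcted Neil3-/- tissue, which is 1 of 5 against 5.53% of all ends, and it was at 1.14 in wild-type. Of 22 bodies of matrix substrates, 2 were higher for the infarct in wild-type (Col3a1, a fibrillar collagen, 1.28-fold, and Thbs2 1.301-fold) and 1 lower (Sparc, 0.797), which is 3 of 22 against 3.56%, and no body was called in the other 3 comparisons. Of 3 measured ends of matrix substrates 1 was called, Bcan, the proteoglycan brevican, at 0.757 for the infarct in wild-type, against 10.2%. Another list held 21 bodies of ADAM and ADAMTS-like genes and of other genes such as Mep1a, Bmp1 and Tll1. In it Mep1a was at 0.727 for the infarct in Neil3-/-, which is 1 of 21 against 1.57%, and no other call was made. In bodies the list medians ran from -0.06 to 0.05 on the log2 scale over the 4 comparisons.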

How the data were processed

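HMST-seq sequences short tags beside CCGG sites. Each deposited value is the authors' normalized signal of 1 library at 1 site (build mm10, per the submitters' processing notes; normalization method, aligner, pooling: not given in the sources used here). The files count positions from 0, and the text counts from 1. Autosomal sites were used if present in every sample and if the MspI and glucosylated MspI signals averaged at least 10 (912550 of 1070814 sites). A ratio divides the summed signals of a region. The fold between 2 samples was divided by the median fold of all measured genes. The additive fit was made without that division, so a shift shared by all genes enters its differences and p-values. The additive fit of infarct and genotype to the log2 ratio of all genes used limma 3.58.1 in R 4.3.3, with a threshold of 0.05 on the Benjamini-Hochberg adjusted p. It was run on simulated data with added infarct changes larger than the member differences given here. The simulation therefore does not show whether differences of that size would be called. The rest used Python 3.11.15, numpy 2.4.6 and pandas 2.3.3. Each p-value sets the infarct or genotype difference against a residual, which without replicates is only the departure of the 4 samples from additivity. limma draws that residual toward the spread over all genes, with a prior of 5.58 degrees of freedom in bodies and 27.2 at ends. The p-values and SEs therefore do not measure variation between animals. Depth in tags is unknown, so no counting interval is given.

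Members named were all Timp genes, Mmp2, Mmp9, Mmp14, Adamts1 and Adamts4, those in the marked blocks of chromosomes 1 and 8, those past the fold, and the 2 highest and 2 lowest of each family; others are given by range, and a few further values were chosen after they were seen. The members, lists and rules were chosen with earlier results of these data known. Exons were not used here, and for 14 members the strand was not used here.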

Additional observations from a re-analysis of the deposited data

How the results depend on the processing

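Counts of members past the fold are small and depend on how a region is summarised. With no minimum signal every count was the same except the glucosylated ratio for the infarct in wild-type, which had 2 in bodies and 2 at ends. With a minimum of 20, in place of 10, the count was 0 for wild-type infarct bodies, infarcted genotype bodies, wild-type infarct ends and both genotype ends (29 bodies and 6 ends measured). The bodies of Mmp25 and Adamts4 and the ends of Adamts10, Adamts13 and Adamts9 were then under the minimum number of sites. Calls in these regions, in either ratio, could therefore not be assessed at that setting. Without dividing by the median gene, genotype ends in infarcted tissue had 2. With a difference of 20 percentage points in place of a fold, infarct bodies in Neil3-/- had 1, against 2.78% of all genes, and ends had 6 for the infarct in wild-type (42.3% of all genes), 6 in Neil3-/- (34%), 6 for genotype in infarcted tissue (39.5%) and 7 in non-infarcted tissue (33.3%). With the median of single-site ratios, bodies had 6 and 4 (infarct, wild-type and Neil3-/-) and 2 and 7 (genotype, non-infarcted and infarcted), ends had 2 for the infarct in Neil3-/- and 7 and 5 for genotype, and the glucosylated ratio in bodies had 3 for the infarct in Neil3-/- and 4 and 2 for genotype; the share of all genes past the fold was larger as well, for example 22.0% in wild-type infarct bodies against 3.56%. Without the strongest MspI site, wild-type infarct bodies had 0, genotype ends in non-infarcted tissue 1 (Adamts9, in place of Adamts10 and Adamts13), and the glucosylated ratio in bodies 1 each for the infarct in Neil3-/- and genotype in infarcted tissue. With windows of 2 kb, wild-type infarct ends had 1 of 23 (11.4% of all genes) and genotype ends in infarcted tissue 3 of 23 (8.53%). With a minimum of 3 end and 5 body sites, chosen after seeing the data, genotype ends in infarcted tissue had 6 of 23 (14.9% of all genes) and the glucosylated ratio for the infarct in Neil3-/- 1 of 35 bodies (3.08%). For the glucosylated ratio at ends, whose alternatives were also added after seeing the data, the infarct in wild-type had 0 with a minimum of 20, 5 without dividing by the median gene (38.6% of all genes), 5 with the 20-point difference (45.3%), 4 with the median of single-site ratios (42.4%), 10 of 23 with windows of 2 kb (25.7%) and 8 of 23 with the minimum of 3 sites (33.8%). The infarct in Neil3-/- had 1, 2, 3 and 2 without dividing by the median gene, with the 20-point difference, with windows of 2 kb and with 3 sites, and 2 without the strongest site. Genotype in non-infarcted tissue had 0 with a minimum of 20, 1 with the median of single-site ratios, 4 of 23 with windows of 2 kb and 5 of 23 with 3 sites, and genotype in infarcted tissue had 5 of 23 with 3 sites (18.1%). The other 82 counts stayed within 1.5 times, the limma counts among them, but a like count can hold different genes. Wild-type infarct ends, for example, were Timp2, Adamts13 and Adamts17 with the median of single-site ratios, in place of Adamts10 and Adamts13. The Mmp25 fold reversed to 0.909 with the median of single-site ratios. Apart from the genes no longer measured at a minimum of 20, the cause of these differences was not tested.

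No paired analysis was possible because the labels give no replicate numbers and each group is 1 sample. The additive limma fit gives a single infarct difference common to both genotypes, not a separate comparison within each. Leaving out a replicate was not possible, with 1 sample a group. The limits include the single sample per group, the unknown number of tags, ratios that depend on the MspI signal, and ends with few sites: 35 of 45 members missed the minimum at an end.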
